A study of Homo sapiens with 12 samples.

Results

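The genes described are 55 members of the ubiquitin system. They were chosen by symbol from a deposited table of 3699 genes measured in SW480, a human colorectal adenocarcinoma cell line. The rule took symbols that start with UBE2 (5 genes), RNF and a digit (13 genes, leaving out RNF43), TRIM and a digit (9 genes), FBXO, FBXL or FBXW (9 genes, the F-box family), KLHL (8 genes), USP and a digit (10 genes), or PSMA, PSMB, PSMC or PSMD and a digit (1 gene, PSMB9). Symbols with a hyphen were left out. The rule itself used no measured value, but the table it was applied to was selected by the authors' tests on these libraries. Members were also chosen with earlier results of these data known. One of the 55, USP6NL, meets the rule by its symbol only, since it encodes a Rab GTPase-activating protein and not a deubiquitinase.

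Ubiquitin is attached to proteins in a chain of steps: an E1 enzyme activates it, an E2 conjugating enzyme (here UBE2) carries it, and an E3 ligase picks the substrate. RNF and most TRIM proteins are ligases with a RING domain, while F-box and many KLHL proteins are the substrate-binding subunits of cullin-RING ligases, built on CUL1 and CUL3. USP enzymes remove ubiquitin, and proteins that carry chains of it are often degraded by the proteasome. In colorectal cancer cells this system controls, among others, cell cycle regulators and beta-catenin, the effector of Wnt signalling.

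RNA was sequenced from 12 libraries in 4 groups of 3: cells given GLY and PUE together (GLY_PUE), GLY alone, PUE alone, and untreated cells. The labels do not spell the abbreviations out. All cells were kept for 12 h in medium with 10% serum before fresh medium with or without treatment was added. The treatment time is labelled 12 h for the GLY_PUE and PUE libraries, while the GLY libraries carry 12, 13 and 14 h as replicates 1, 2 and 3, against 12 h in the protocol. SW480 is a single cell line, and nothing says that replicates came from separate cultures. The p-values thus rest on the spread among 3 libraries a group, and that spread may be technical.

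Library totals recovered from the table were 19.7 to 21.4 M reads, and the table held 13.8 to 15.4% of them. Levels are given in CPM, the count divided by the library total in M reads, so that 3 counts, the limit that a count of 0 allows, correspond to 0.140 to 0.152 CPM (counting error only). The authors listed genes by their own tests: each one passes both a q-value limit of 0.001 and a log2 ratio of 1 in size in some comparison of theirs. The table is thus a selected list, and a count of calls within it is not independent evidence of a response. Of 9 colon epithelium markers the table held VIL1 and CDX2, whose summed level was 13.5 to 15.4 CPM in GLY_PUE, 12.1 to 20.8 in GLY, 70.7 to 96.3 in PUE and 70.2 to 94.5 in untreated libraries. Of 7 fibroblast markers it held PDGFRB (1.74 to 3.74 CPM in GLY_PUE, 1.64 to 3.57 in GLY, 0.689 to 0.915 in PUE and 0.838 to 0.995 in untreated libraries), of 5 leukocyte markers CD14 (0.0473 to 0.188 CPM in GLY_PUE, 0.0469 to 0.189 in GLY, 0.696 to 1.12 in PUE and 0.838 to 0.995 in untreated libraries), and of 4 endothelial and 5 retinal markers none. The part of these changes in the results below was not tested. GLY replicate 1 stood apart on the second principal component of all genes (10.03% of the variance, score 49.86 against -21.92 to 4.223 in the other 11 libraries). On the first component (73.4%), replicate 3 of untreated and of PUE cells scored -61.94 and -61.66. Replicates 1 and 2 of these groups scored -37.79 to -35.96.

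Promoters are shown for members with large changes in both directions, so that the letters can be read beside the levels. They run from 250 bases before to 50 after the annotated start, in RefSeq on GRCh38.p14, 5′ to 3′ along the gene's strand. Capitals mark motif matches: TTTGAA (cell cycle homology region, CHR), CCAAT, TGACNNNGC (core of the antioxidant response element) and the core of the interferon response element (GAAA, any 2 bases and GAAA again). Each motif was searched on both strands, and matches of different motifs could overlap. The first 4 members rise or fall in every comparison of GLY with its control, and TRIM25 is added as a riser that holds none of these motifs.
TRIM2, chr4:153151913-153152212, plus strand, the first of 6 promoters listed for the gene: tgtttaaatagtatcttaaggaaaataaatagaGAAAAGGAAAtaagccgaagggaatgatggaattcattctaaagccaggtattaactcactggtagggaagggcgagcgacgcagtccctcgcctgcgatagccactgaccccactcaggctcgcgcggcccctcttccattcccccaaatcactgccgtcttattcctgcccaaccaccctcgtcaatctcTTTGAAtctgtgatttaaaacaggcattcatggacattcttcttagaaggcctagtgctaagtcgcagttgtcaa
UBE2T, chr1:202341887-202342186, minus strand: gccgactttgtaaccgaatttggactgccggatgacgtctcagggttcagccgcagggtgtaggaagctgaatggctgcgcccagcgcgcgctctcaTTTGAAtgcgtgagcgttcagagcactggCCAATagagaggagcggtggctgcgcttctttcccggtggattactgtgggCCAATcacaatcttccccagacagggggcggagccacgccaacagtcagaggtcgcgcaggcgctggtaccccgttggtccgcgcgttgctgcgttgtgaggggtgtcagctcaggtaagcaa
KLHL21, chr1:6602820-6603119, minus strand: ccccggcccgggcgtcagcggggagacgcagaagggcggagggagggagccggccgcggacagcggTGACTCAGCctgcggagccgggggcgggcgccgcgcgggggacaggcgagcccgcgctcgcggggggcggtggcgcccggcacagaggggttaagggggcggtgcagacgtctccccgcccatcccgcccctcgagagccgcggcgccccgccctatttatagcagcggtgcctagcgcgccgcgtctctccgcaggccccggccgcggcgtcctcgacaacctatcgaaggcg
TRIM16, chr17:15682902-15683201, minus strand: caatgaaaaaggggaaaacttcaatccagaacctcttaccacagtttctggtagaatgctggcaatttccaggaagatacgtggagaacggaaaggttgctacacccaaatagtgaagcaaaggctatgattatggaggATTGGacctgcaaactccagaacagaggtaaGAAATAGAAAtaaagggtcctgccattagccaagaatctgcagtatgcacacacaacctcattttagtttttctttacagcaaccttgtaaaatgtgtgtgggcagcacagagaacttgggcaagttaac
TRIM25, chr17:56914000-56914299, minus strand: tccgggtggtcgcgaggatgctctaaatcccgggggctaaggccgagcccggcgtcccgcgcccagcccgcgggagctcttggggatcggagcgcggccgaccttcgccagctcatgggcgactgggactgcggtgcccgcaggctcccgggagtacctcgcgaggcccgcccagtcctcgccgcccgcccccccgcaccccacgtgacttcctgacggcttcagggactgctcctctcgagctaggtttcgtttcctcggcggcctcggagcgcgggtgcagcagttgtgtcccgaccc

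RefSeq promoters were matched for 46 of the 55 members, and a member counts as holding a motif where any of its promoters does. CHR was found in 4 of the 30 members with a promoter that were called lower in GLY against untreated (FBXO5, RNF26, TRIM2 and UBE2T), in 0 of the 7 called higher, and in 18.2% of 27305 genes. CCAAT was found in 16 of the 30, in 3 of the 7, and in 39.7% of all genes. The antioxidant core was found in 4 of the 30, in 3 of the 7 (KLHL21, RNF223 and USP2), and in 16.1% of all genes. The interferon core, searched after the data were seen, was found in 3 of the 30, in 1 of the 7 (TRIM16), and in 4.38% of all genes. GAANNTTC, a pair of heat shock units, was found in 1 of the 30, in 0 of the 7, and in 8.21% of all genes. A match describes letters only and is no sign of a bound factor.

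Addition of GLY shifted the ubiquitin system genes in both directions. Of the 51 members with enough counts to test, 8 rose and 35 fell in GLY against untreated cells at an adjusted p under 0.05, and 8 passed in neither direction. The share called, 84.3%, equals the 84.3% of all 3429 genes tested. The rises came to 15.7% of members against 19.7% of all genes, and the falls to 68.6% against 64.6%. The median log2 fold change was -1.06 over the members and -1.15 over all genes. With only the GLY and untreated libraries in the fit, 23 members fell, and at an adjusted p under 0.01 in the fit of all libraries 20 did. The fit of GLY and untreated libraries called 30 members in all, beside 2437 of 3224 genes. Groups did not overlap for 44 of the 51 members (86.3%, against 83.3% of all genes). In these bulk libraries, fewer cells of a kind and less RNA per cell cannot be told apart.

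These directions are relative to the total reads of each library. TMM scaling within the selected list, which assumes that most listed genes do not change, raised log2 fold changes by 1.13 in GLY against untreated and by 1.02 in GLY_PUE against PUE. Under it, 10 of the 51 members were called higher and 1 lower (TRIM2) in GLY against untreated, beside 1158 of all 3429 genes called in either direction. In GLY_PUE against PUE it called 10 members, beside 1232 of the 3429 genes. Of the 43 members called with library totals in GLY against untreated, 15 had the other sign. The rises of UBE2H, TRIM16, TRIM25, KLHL21, USP36 and USP2 and the fall of TRIM2 passed with both scalings in both comparisons. No other fall of a member passed under TMM in either comparison. The authors' own log2 ratios carry a constant of -0.0731 in GLY against untreated, and the recovered library totals give -0.0746 for the same quantity.

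**Figure D1:**
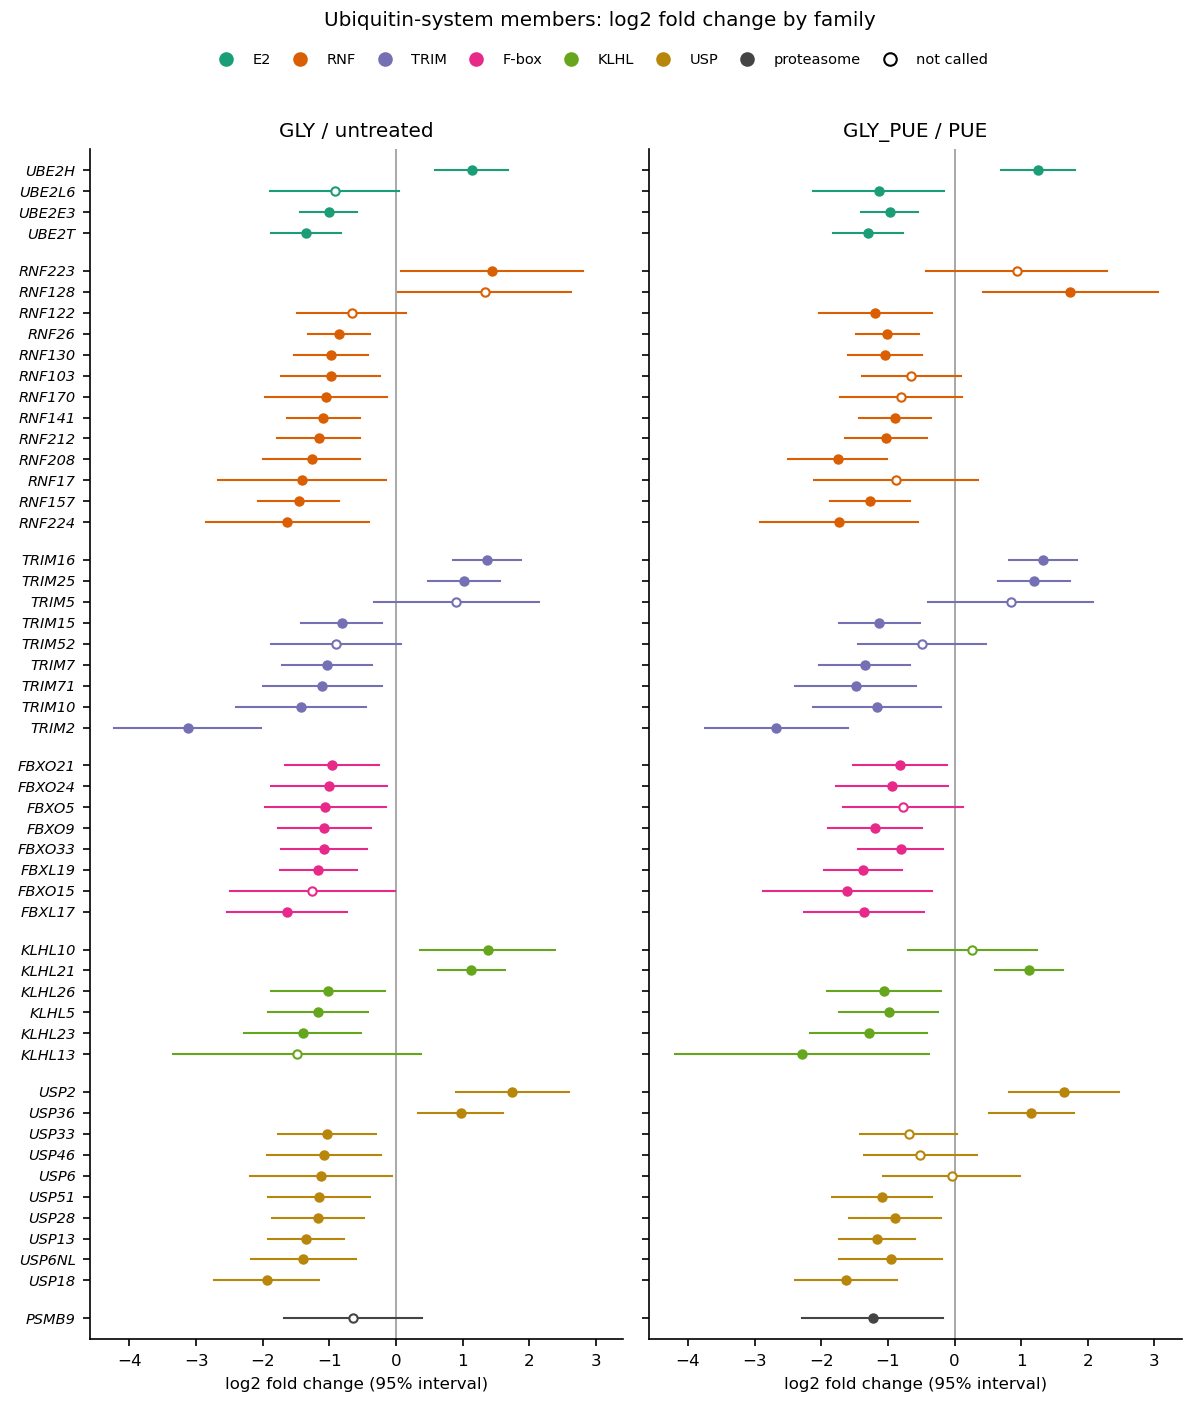
Log2 fold changes (horizontal axis, with 95% intervals) of the 51 tested members, grouped by family and ordered within a family, in GLY against untreated (left) and GLY_PUE against PUE (right), relative to library totals. Filled points passed the test. 8 members rose and 35 fell on the left, and 7 rose and 33 fell on the right. Under TMM scaling TRIM2 alone passed as lower on either side. Over all 3429 genes tested, 2890 were called on the left and 2669 on the right, and 1158 and 1232 under TMM scaling.

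Among the E2 conjugating enzymes, UBE2H rose and UBE2E3 and UBE2T fell in GLY against untreated relative to library totals, while under TMM scaling only UBE2H passed. UBE2H, the E2 of the CTLH ligase complex, had 162, 255 and 203 CPM in GLY replicates 1 to 3, against 102, 103 and 76.1 CPM in untreated ones. Every GLY library was above every untreated one (log2 fold change 1.14 ± 0.25 SE, adjusted p = 0.00208). UBE2T, the E2 of the Fanconi anaemia pathway that adds ubiquitin to FANCD2, had 15.9, 17.1 and 22.4 CPM in GLY, against 42.9, 42.5 and 55.8 CPM in untreated libraries. It was lower in all 3 GLY libraries, including replicate 1 (log2 fold change -1.35 ± 0.24 SE, adjusted p = 0.000596). UBE2E3, an E2 of the UBE2E class, had 35.8, 44.5 and 41.9 CPM in GLY, against 79.4, 79.3 and 87.2 CPM in untreated libraries, with no overlap (log2 fold change -1.01 ± 0.20 SE, adjusted p = 0.000963). UBE2L6, which conjugates the ubiquitin-like protein ISG15, did not pass in GLY (log2 fold change -0.92, adjusted p = 0.0688), where its 2.46, 1.12 and 0.704 CPM overlapped with 2.96, 2.74 and 2.41 CPM in untreated libraries. It had 1.31, 1.46 and 0.805 CPM in GLY_PUE, against 3.13, 3.25 and 1.52 CPM in PUE libraries, and passed as lower there (log2 fold change -1.14 ± 0.45 SE, adjusted p = 0.0349), a call lost without any of 4 libraries (PUE or GLY_PUE replicate 1, PUE replicate 2, GLY_PUE replicate 3; highest adjusted p = 0.109). UBE2QL1 was too low to test, at 0 to 0.0469 CPM in GLY and 0.148 to 0.247 CPM in untreated libraries.

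Of the 13 RNF members, 1 rose, 10 fell and 2 passed in neither direction in GLY against untreated, and under TMM scaling 2 passed as higher and none as lower. With library totals, 19.7% of all genes tested rose and 64.6% fell, and under TMM scaling 1158 of 3429 passed in either direction. RNF157, a ligase studied in neurons, had 4.68, 4.07 and 4.83 CPM in GLY, against 9.39, 12 and 16.1 CPM in untreated libraries. The groups were well apart and GLY replicate 1 lay between the other GLY libraries (log2 fold change -1.46 ± 0.28 SE, adjusted p = 0.000882). RNF26, a ligase of the endoplasmic reticulum membrane, was named after its values were seen, for its CHR match. It had 69.3, 47 and 51.2 CPM in GLY, against 95.6, 101 and 106 CPM in untreated libraries (log2 fold change -0.85 ± 0.22 SE, adjusted p = 0.00404), and its fold change turned to 0.34 under TMM scaling. RNF208 had 3.79, 3.58 and 3.31 CPM in GLY_PUE and 11.8, 11.6 and 12.7 CPM in PUE libraries, with a wide gap between the groups (log2 fold change -1.75 ± 0.34 SE, adjusted p = 0.00105). In the GLY libraries RNF208 was uneven, at 8.74, 4.12 and 2.86 CPM.

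RNF17, known as a germ cell protein with tudor domains, had 0.236, 1.22 and 2.3 CPM in GLY, against 2.52, 3.38 and 4.09 CPM in untreated libraries (log2 fold change -1.41 ± 0.58 SE, adjusted p = 0.0384). That call was lost without GLY replicate 1 (log2 fold change -0.92) and without GLY replicate 2 or untreated replicate 2 or 3 (highest adjusted p = 0.099). RNF128, or GRAIL, a ligase known from T cell anergy, had 2.58, 2.78 and 5.16 CPM in GLY_PUE, against 0.497, 1.28 and 1.37 CPM in PUE libraries. It passed as higher there (log2 fold change 1.73 ± 0.61 SE, adjusted p = 0.021), a call lost without PUE replicate 1 or GLY_PUE replicate 3 (highest adjusted p = 0.079). GLY itself gave RNF128 levels of 0.803, 3.0 and 5.44 CPM and no call (adjusted p = 0.053). RNF223, named after its values were seen as the only RNF member called higher in GLY, had 8.69, 6.18 and 2.2 CPM in GLY and 3.26, 2.34 and 0.69 CPM in untreated libraries, which overlapped (log2 fold change 1.44 ± 0.63 SE, adjusted p = 0.0485). Its call was lost when any of 9 libraries was left out (highest adjusted p = 0.19). The remaining RNF members called lower (RNF103, RNF130, RNF141, RNF170, RNF208, RNF212 and RNF224) had log2 fold changes between -1.63 and -0.97. The calls of RNF170 and RNF224 were lost without untreated replicate 3 or GLY replicate 1 or 2, and that of RNF103 without untreated replicate 1 (highest adjusted p = 0.154, 0.0903 and 0.0599). Without GLY replicate 1 the log2 fold change of RNF103 was -0.64.

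The TRIM family held the largest fall of all tested members: 2 members rose, 5 fell and 2 passed in neither direction in GLY against untreated, and under TMM scaling 3 passed as higher and 1 as lower. The shares over all genes, with library totals, were 19.7% higher and 64.6% lower, while TMM scaling called 1158 of 3429 in either direction. TRIM2, a ligase known for neurofilament turnover in neurons, had 22.9, 30.9 and 22 CPM in GLY_PUE and 5.1, 26.9 and 22.2 CPM in GLY, against 139, 141 and 204 CPM in PUE and 126, 120.1 and 228 CPM in untreated libraries. All 6 libraries with GLY were below all 6 without it. TRIM2 fell in GLY against untreated (log2 fold change -3.13 ± 0.51 SE, adjusted p = 0.000346) and in GLY_PUE against PUE (log2 fold change -2.67 ± 0.50 SE, adjusted p = 0.000793). GLY replicate 1 was the lowest of the 12 libraries, and without it the log2 fold change in GLY was -2.69. Under TMM scaling the fold changes were -2.04 and -1.63, both past the threshold.

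TRIM16, a TRIM protein without a RING domain that acts in the autophagy of damaged membranes, had 135, 128 and 149.6 CPM in GLY_PUE and 162, 129 and 169 CPM in GLY, against 54.9, 62.7 and 46.9 CPM in PUE and 63.5, 70.3 and 44.3 CPM in untreated libraries. GLY replicate 1 lay within the range of the other GLY libraries (log2 fold change 1.37 ± 0.23 SE, adjusted p = 0.000458). Reads of TRIM16 may be shared with its near-identical copy TRIM16L. TRIM25, the ligase that adds ubiquitin to the RNA sensor RIG-I, had 421, 435 and 439 CPM in GLY_PUE and 265, 429.5 and 439 CPM in GLY, against 209, 211 and 149 CPM in PUE and 209.6, 200.1 and 147 CPM in untreated libraries. Replicate 1 was low within GLY, yet above every untreated library (log2 fold change 1.02 ± 0.25 SE, adjusted p = 0.00322). TRIM7, which binds the glycogen primer glycogenin, had 12.8, 6.93 and 10.2 CPM in GLY, against 17.4, 17.5 and 26.3 CPM in untreated libraries (log2 fold change -1.04 ± 0.31 SE, adjusted p = 0.00965), with a sign that turned under TMM scaling (0.18). TRIM10, TRIM15 and TRIM71 also fell, by log2 fold changes of -1.43, -0.82 and -1.11. These calls were lost without untreated replicate 3 (all of them), GLY replicate 2 (TRIM15), or untreated replicate 2 or GLY replicate 1 or 3 (TRIM71), with adjusted p-values of at most 0.0568, 0.068 and 0.0809 for TRIM10, TRIM15 and TRIM71. TRIM5, a factor that restricts retroviruses, was named after its values were seen. It had 2.31, 4.78 and 13.8 CPM in GLY and 3.36, 3.13 and 4.68 CPM in untreated libraries and did not pass (adjusted p = 0.147), but did so under TMM scaling (adjusted p = 0.00695) and when GLY replicate 1 was left out. GLY replicate 3 was far above the other GLY libraries, and without it the log2 fold change was -0.071 (adjusted p = 0.89).

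No F-box member rose. In GLY against untreated 7 of the 8 tested fell relative to library totals, with FBXO15 the exception (adjusted p = 0.0553), while under TMM scaling none passed in either direction. Among all genes tested 19.7% rose and 64.6% fell relative to library totals, and 1158 of 3429 passed in either direction under TMM scaling. FBXO5, or EMI1, an inhibitor of the anaphase-promoting complex, had 6.47, 27.3 and 31.8 CPM in GLY, against 41.9, 44.3 and 50.5 CPM in untreated libraries. All GLY libraries were lower, but replicate 1 was far below the others (log2 fold change -1.06 ± 0.42 SE, adjusted p = 0.0318). The FBXO5 call was lost without untreated replicate 2 or 3 (highest adjusted p = 0.0779), and without GLY replicate 1 the fold change was -0.63. In GLY_PUE libraries FBXO5 had 27.9, 25.1 and 25.5 CPM, against 41.2, 44.5 and 48.1 CPM in PUE ones, which did not overlap but did not pass (adjusted p = 0.10) in the fit of all libraries. It passed when GLY replicate 1 was left out of that fit (log2 fold change -0.77). FBXL17, which removes aberrant BTB dimers, had 2.6, 10.0 and 11.5 CPM in GLY, against 21.7, 22.7 and 30.6 CPM in untreated libraries (log2 fold change -1.64 ± 0.42 SE, adjusted p = 0.00434, and -1.21 without GLY replicate 1). FBXL19, a CpG island binding protein, had 13, 8.8 and 8.3 CPM in GLY, against 19.9, 22.4 and 25.4 CPM in untreated libraries (log2 fold change -1.17 ± 0.27 SE, adjusted p = 0.00233). For FBXL19, replicate 1 was the highest of the GLY libraries. FBXO43, an inhibitor of the anaphase-promoting complex in germ cells, was too low to test, with at most 0.14 CPM in GLY and 0.591 CPM in untreated libraries.

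Of the 6 tested KLHL members, 2 rose, 3 fell and 1 passed in neither direction in GLY against untreated, and under TMM scaling the 2 rises alone passed. Relative to library totals, 19.7% of all genes tested rose and 64.6% fell, and TMM scaling called 1158 of 3429 in either direction. KLHL21, a CUL3 adaptor that directs Aurora B in cytokinesis, had 277, 277 and 226 CPM in GLY_PUE and 279, 273 and 233 CPM in GLY, against 133, 134 and 92.8 CPM in PUE and 128, 139 and 91 CPM in untreated libraries. All libraries with GLY were above all without it, and GLY replicate 1 was close to replicate 2 (log2 fold change 1.13 ± 0.23 SE, adjusted p = 0.00132). KLHL5 had 24.8, 74.8 and 72.1 CPM in GLY, against 113, 118 and 155 CPM in untreated libraries (log2 fold change -1.17 ± 0.34 SE, adjusted p = 0.00854). KLHL23 had 5.67, 26 and 19.5 CPM in GLY, against 38.8, 46.9 and 49.7 CPM in untreated libraries (log2 fold change -1.40 ± 0.41 SE, adjusted p = 0.00797), and its reads may be shared with a read-through gene. Both were lowest in GLY replicate 1, and without it the fold changes were -0.81 and -0.99, still past the threshold. KLHL26 had 5.43, 6.07 and 3.88 CPM in GLY_PUE, against 11.6, 12.5 and 8.03 CPM in PUE libraries (log2 fold change -1.06 ± 0.39 SE, adjusted p = 0.0272), a call lost without any of 4 libraries (PUE replicate 1 or 2, GLY_PUE replicate 1 or 3; highest adjusted p = 0.088). KLHL10, known from spermatogenesis and named after its values were seen, had 0.85, 0.796 and 0.563 CPM in GLY and 0.296, 0.199 and 0.345 CPM in untreated libraries (log2 fold change 1.37 ± 0.47 SE, adjusted p = 0.0168), a call lost without untreated replicate 2 (adjusted p = 0.065). KLHL3 and KLHL14 were too low to test.

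Every USP member passed in GLY against untreated: 2 rose and 8 fell relative to library totals, and under TMM scaling the 2 rises alone passed. Beside these 10 members, 84.3% of all genes tested passed with library totals, with 19.7% higher and 64.6% lower. Under TMM scaling 1158 of 3429 genes passed in either direction. USP36, a nucleolar deubiquitinase that stabilises MYC, had 387, 411 and 319 CPM in GLY_PUE and 299, 386 and 305 CPM in GLY, against 201, 191 and 111 CPM in PUE and 193, 206 and 105 CPM in untreated libraries. Replicate 3 was lowest within untreated, PUE and GLY_PUE cells, and the groups with and without GLY did not overlap (log2 fold change 0.97 ± 0.29 SE, adjusted p = 0.010). USP2, a deubiquitinase of MDM2 and cyclin D1, was named after its values were seen and was low throughout. It had 1.94, 2.2 and 1.55 CPM in GLY, against 0.741, 0.398 and 0.542 CPM in untreated libraries (log2 fold change 1.75 ± 0.39 SE, adjusted p = 0.00204). USP18, which removes ISG15 and was also named after its values were seen, had 0.425, 0.281 and 0.61 CPM in GLY, against 1.83, 1.49 and 1.77 CPM in untreated libraries. This was the largest USP fall (log2 fold change -1.94 ± 0.36 SE, adjusted p = 0.000745), and reads may be shared with its copy USP41.

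USP13, a deubiquitinase, had 23.9, 24.1 and 24 CPM in GLY_PUE and 12.3, 26.9 and 22.4 CPM in GLY, against 53.1, 53.6 and 54.1 CPM in PUE and 49.7, 53.2 and 54.2 CPM in untreated libraries. The GLY_PUE libraries lay close together, as did the PUE ones, while GLY replicate 1 was the lowest of all (log2 fold change -1.35 ± 0.26 SE, adjusted p = 0.000958 in GLY against untreated). USP6NL, the Rab GTPase-activating protein, had 8.79, 29.9 and 29.2 CPM in GLY, against 55.7, 56.6 and 66 CPM in untreated libraries (log2 fold change -1.39 ± 0.36 SE, adjusted p = 0.00471, and -1.01 without GLY replicate 1). USP46, named after its values were seen, had 5.24, 23.6 and 19 CPM in GLY and 33.1, 32.7 and 35.2 CPM in untreated libraries. It fell in GLY (log2 fold change -1.08 ± 0.40 SE, adjusted p = 0.024), with the call lost without untreated replicate 3 (adjusted p = 0.0541) and a log2 fold change of -0.66 without GLY replicate 1. USP51, which removes ubiquitin from histone H2A, had 1.55, 1.46 and 1.18 CPM in GLY_PUE, against 3.23, 3.05 and 2.64 CPM in PUE libraries (log2 fold change -1.09 ± 0.35 SE, adjusted p = 0.0139). The other falls in GLY (USP6, USP28 and USP33) had log2 fold changes between -1.17 and -1.03, that of USP33 was -0.67 without GLY replicate 1, and that of USP6 was lost without any of 9 libraries (highest adjusted p = 0.154).

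PSMB9, an inducible catalytic subunit of the immunoproteasome, was the sole proteasome subunit in the table, out of 40 protein-coding symbols that meet the proteasome part of the rule in GENCODE release 29 (2.5%, against 17.9% of all protein-coding symbols). The other families had 11.8% (TRIM) to 21.6% (KLHL) of their symbols listed. PSMB9 had 2.72, 3.06 and 1.23 CPM in GLY_PUE and 5.53, 3.32 and 1.13 CPM in GLY, against 5.57, 5.51 and 5.39 CPM in PUE and 6.47, 5.52 and 3.6 CPM in untreated libraries. The GLY libraries overlapped with the untreated ones and gave no call (adjusted p = 0.212). GLY_PUE libraries were below all PUE ones (log2 fold change -1.23 ± 0.49 SE, adjusted p = 0.0351), a call lost without any of 5 libraries (any PUE library, GLY_PUE replicate 1 or 3; highest adjusted p = 0.116).

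**Figure D2:**
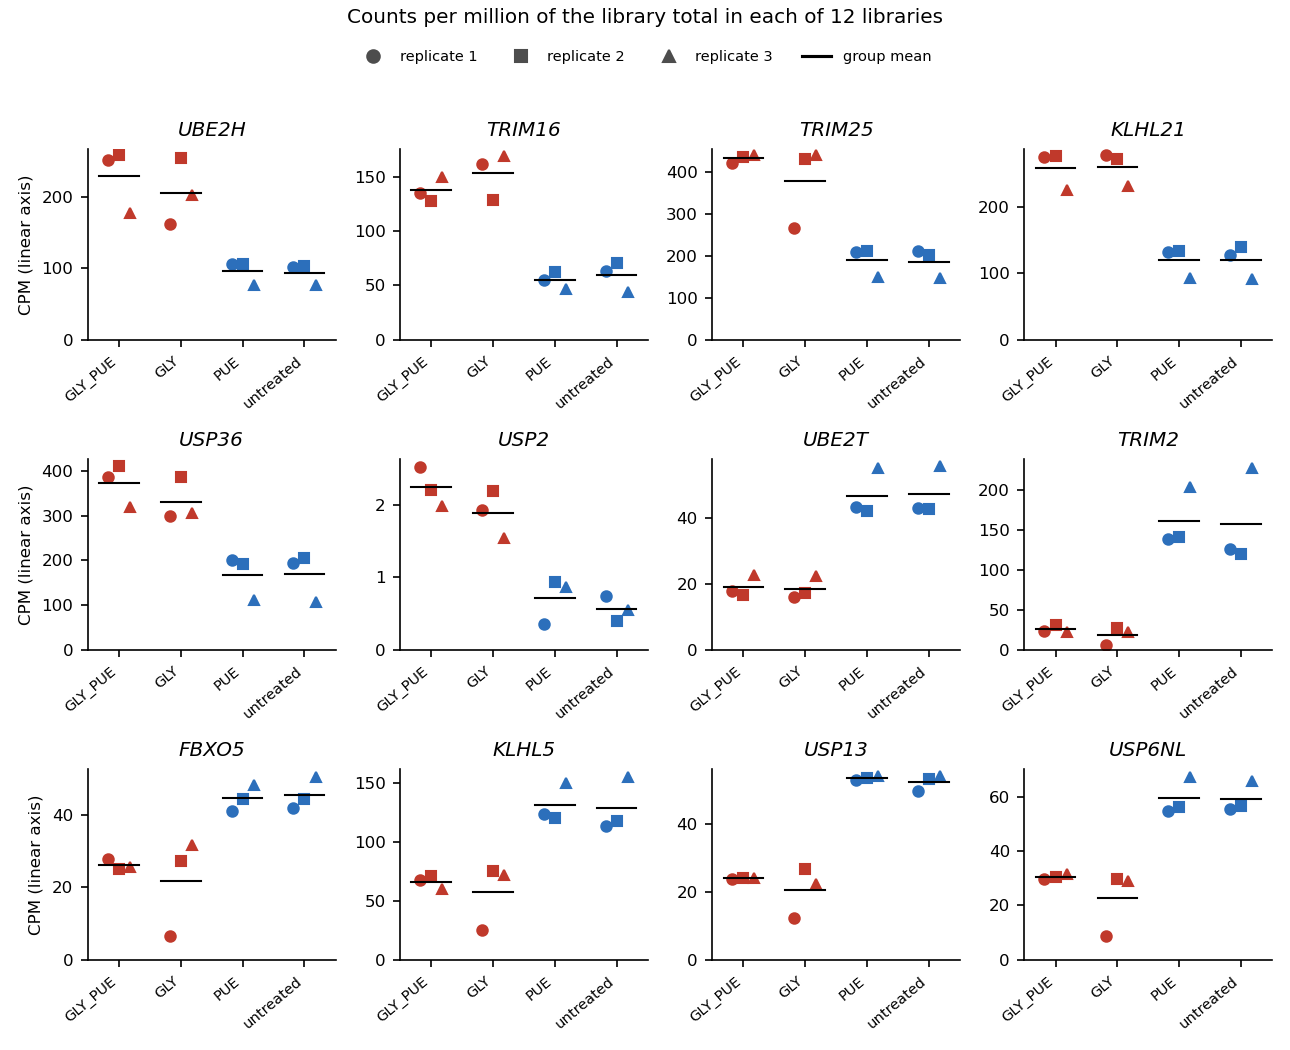
CPM (vertical axes, linear and starting at 0) of 12 members in each of 12 libraries, with groups GLY_PUE, GLY, PUE and untreated from left to right. Symbols are replicates and black lines are group means. UBE2H, TRIM16, TRIM25, KLHL21, USP36 and USP2 were higher in the 6 libraries with GLY than in the 6 without, the other 6 members were lower (under TMM scaling only TRIM2 among these passed as lower), and GLY replicate 1 (red circle) sits apart for TRIM2, FBXO5, KLHL5, USP13 and USP6NL.

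The order of the members by level also differed with GLY. On the deposited expression value, which allows for transcript length and behaves as FPKM, TRIM25 (66.2 ± 17.2), USP36 (62.4 ± 12.7), TRIM16 (60.4 ± 8.81), KLHL21 (58.0 ± 5.58) and UBE2H (40.3 ± 9.09) led in GLY (mean ± SD, n = 3). In untreated cells UBE2E3 (54.3 ± 3.04) and UBE2T (54.0 ± 8.70) led, ahead of RNF26 (36.3 ± 1.88), TRIM25 (32.6 ± 5.87) and USP36 (31.6 ± 11.4). Within GLY the 4 leading genes lay within their spread of one another, as did UBE2E3 and UBE2T in untreated cells. GLY_PUE had the same 5 leaders as GLY, and PUE the same 5 as untreated cells.

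GLY replicate 1 differed from replicates 2 and 3 by a pattern that followed transcript length. Replicate 1 is labelled 12 h, and replicates 2 and 3 are labelled 13 and 14 h. Labelled time and other differences between these libraries cannot be told apart. Over the 51 members the median deviation of replicate 1 was -0.66 on the log2 scale, with 19 members under -1 and 5 over 1. Length was taken from the count and the expression value of the same gene, which was possible for 41 members (expression value of at least 0.5 in untreated cells). The 16 of these members under -1 (39.0%) had a median length of 4.30 kb, and the other 25 one of 2.29 kb. Over 2712 genes, 829 were under -1 (30.6%), with a median length of 4.21 kb, and the rest had one of 2.54 kb. The median deviation was -0.49 over the 41 members and -0.32 over these genes. Spearman's rho between length and deviation was -0.58 across the 41 members and -0.50 across 2712 genes, given as a description, since genes of 1 library share its preparation. In the 9 libraries outside GLY, rho ranged from -0.15 to 0.22 across the members. Long members with low values included TRIM2 (6.61 kb, deviation -2.24) and USP46 (7.94 kb, -1.99). Short members such as PSMB9 (1.01 kb, deviation 1.46) and UBE2L6 (1.26 kb, 1.37) went the other way. FBXO5 (2.13 kb, -2.17) was low at a modest length, and KLHL21 (4.50 kb, 0.15) was long but not low.

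**Figure D3:**
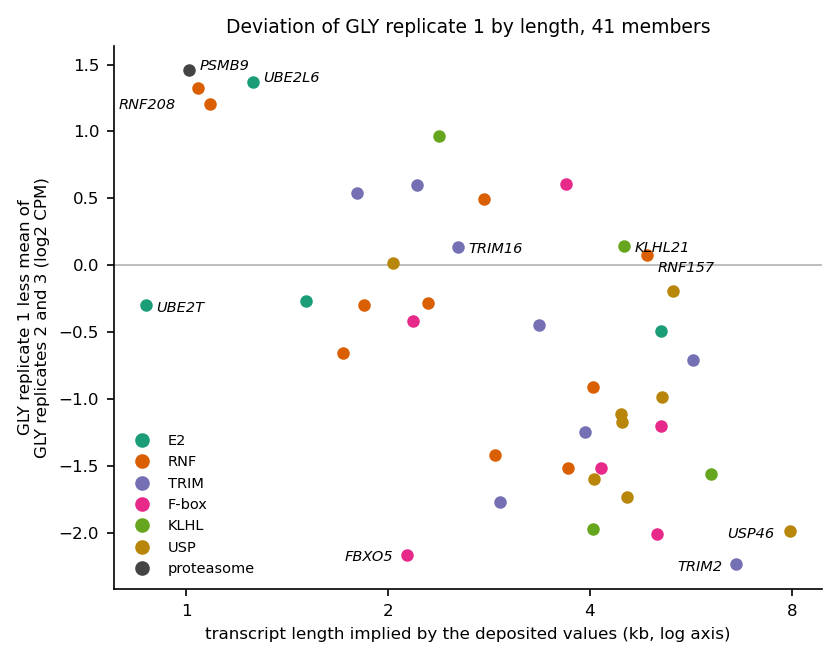
Log2 CPM of GLY replicate 1 less the mean of GLY replicates 2 and 3 (vertical axis) against transcript length in kb (horizontal log axis) for 41 members, coloured by family. Longer members lay lower (Spearman's rho -0.58), from PSMB9 at 1.46 to TRIM2 at -2.24.

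Most member calls in GLY were kept without that library. Without GLY replicate 1, 9 members were called higher and 32 lower relative to library totals, beside 2853 of 3517 genes called in either direction. Of the 43 calls, 37 were kept in the same direction. The calls lost were those of FBXO24, RNF17, RNF170, RNF223, RNF224 and TRIM71. More calls were lost without untreated replicate 3, where 31 of the 43 were kept in the same direction. In that fit 2406 of 3472 genes were called. Spearman's rho between length and the signed log2 fold change was -0.20 in GLY against untreated and 0.29 in GLY_PUE against PUE across the 41 members. Across 2712 genes it was -0.14 and 0.046. The 6 members called higher in GLY had a median length of 4.80 kb and the 30 called lower one of 3.70 kb. Over all genes the order was the other way, at 2.46 kb for 510 called higher and 3.32 kb for 1916 called lower.

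A second comparison, GLY_PUE against PUE, asks the same of GLY in cells that also had PUE, and shares no library with the first. Both use 1 estimate of spread from all 12 libraries, so their calls are not independent. Leaving out GLY replicate 1, which is in neither of its groups, gave 45 called members in place of 40. Over all genes it gave 3011 of 3517 in place of 2669 of 3429. With all libraries, 7 members rose, 33 fell and 11 passed in neither direction of the 51 tested in GLY_PUE against PUE. The share called was 78.4%, beside 77.8% of all genes (20.6% higher and 57.3% lower). The median log2 fold change was -0.99 over the members and -1.05 over all genes. Groups did not overlap for 44 members (86.3%, beside 87.8% of all genes). By family the counts of rises and falls were 1 and 3 for the E2 enzymes, 1 and 8 for RNF, 2 and 5 for TRIM, 0 and 7 for F-box, 1 and 4 for KLHL, 2 and 5 for USP and 0 and 1 for the proteasome, while under TMM scaling 9 members passed as higher and TRIM2 alone as lower. Over all 3429 genes tested, TMM scaling called 1232 in either direction. Without GLY_PUE replicate 1 the falls numbered 21, and 28 members were called in all, beside 2248 of 3521 genes. The log2 fold changes of the leading rises were 1.25 for UBE2H, 1.33 for TRIM16, 1.19 for TRIM25, 1.12 for KLHL21 and 1.15 for USP36. Among the falls they were -1.30 for UBE2T, -1.27 for RNF157, -1.35 for TRIM7, -1.36 for FBXL17, -1.37 for FBXL19, -1.29 for KLHL23 and -1.16 for USP13.

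All 51 members had the same sign in both comparisons, beside 3376 of all 3429 genes tested in this selected list. Of the members, 6 rose in both (UBE2H, TRIM16, TRIM25, KLHL21, USP2 and USP36), 28 fell in both and 0 were called in opposite directions, while 9 were called in GLY against untreated alone and 6 in GLY_PUE against PUE alone. The 34 shared calls were 79.1% of the first set and 85.0% of the second, beside 84.8% and 91.8% over all genes. Pearson's r across the members was 0.93, beside 0.91 across all genes, and members are not independent replicates. The median absolute difference of a member's log2 fold changes was 0.24.

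**Figure D4:**
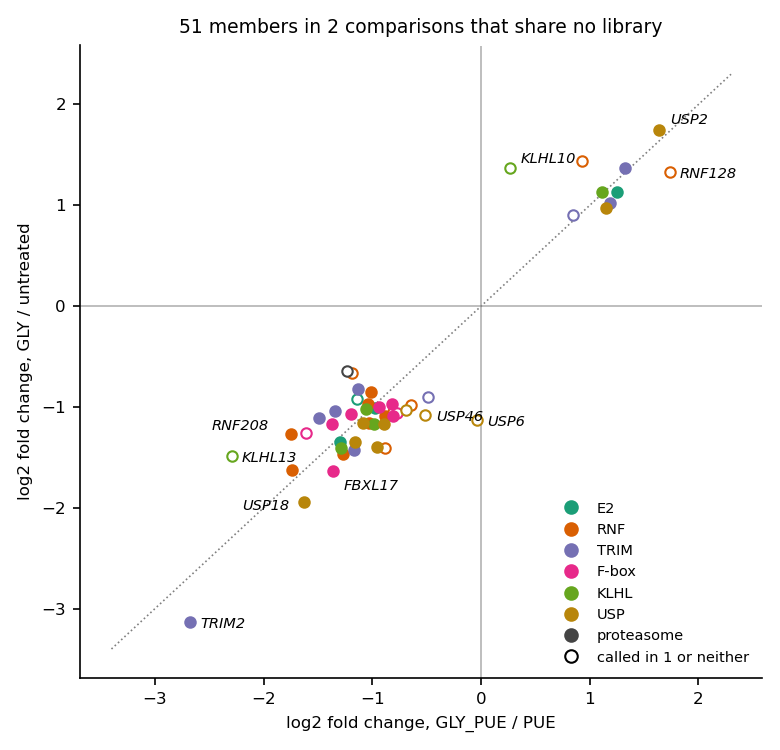
Log2 fold change in GLY against untreated (vertical axis) against that in GLY_PUE against PUE (horizontal axis) for 51 members, relative to library totals and coloured by family. Filled points passed in both comparisons, and the dotted line marks equal values. All 51 points lie in the quadrants of equal sign, with TRIM2 at -3.13 and -2.67 and USP2 at 1.75 and 1.64. Over all genes tested, 3376 of 3429 had equal sign.

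GLY_PUE against untreated uses the libraries of both earlier comparisons and gave 7 members higher, 30 lower and 14 with no call (72.5% called, beside 77.3% of all genes, of which 20.2% rose and 57.1% fell), with a median of -0.95 beside -1.03. Groups did not overlap for 43 members (84.3%, beside 87.4% of all genes). Under TMM scaling 10 passed as higher and TRIM2 as lower, beside 1211 of all 3429 genes called in either direction. Without GLY_PUE replicate 1 the falls numbered 19, and 27 members were called in all, beside 2188 of 3521 genes. TRIM2 (log2 fold change -2.65 ± 0.50 SE, adjusted p = 0.000831) and RNF208 (log2 fold change -1.82 ± 0.34 SE, adjusted p = 0.000858) had the lowest log2 fold changes among members of at least 2 CPM on average over the libraries. USP6NL (log2 fold change -0.95 ± 0.36 SE, adjusted p = 0.029) turned to 0.058 under TMM scaling, and its call was lost without untreated replicate 3 or any GLY_PUE library (highest adjusted p = 0.0767).

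PUE changed no member detectably. In PUE against untreated 0 of 51 members passed with edgeR (0% of all 3429 genes called), 0 had an unadjusted p under 0.05, against 12 of all genes, and DESeq2 also called 0, with 4 genes under the unadjusted threshold. Log2 fold changes ran from -0.22 to 0.77, and the 95% interval lay within 1 log2 unit of 0 for 36 members. Groups did not overlap for 0 members, beside 3.18% of all genes. TRIM16, for example, had 54.9, 62.7 and 46.9 CPM in PUE and 63.5, 70.3 and 44.3 CPM in untreated libraries (log2 fold change -0.11, 95% interval -0.61 to 0.39). The member with the smallest p, KLHL10, had 0.547, 0.344 and 0.559 CPM in PUE and 0.296, 0.199 and 0.345 CPM in untreated libraries (log2 fold change 0.77, 95% interval -0.27 to 1.81). The next smallest p-values belonged to USP2 (log2 fold change 0.35), FBXO24 (0.29), RNF224 (0.33) and KLHL13 (0.43), and FBXO5 stood at -0.03.

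GLY_PUE against GLY asks what PUE added to GLY, and again 0 members passed with edgeR (0% of all genes called), with 0 under an unadjusted p of 0.05, against 57 of all genes, and 0 calls by DESeq2, with 49 genes under that p. The 95% interval lay within 1 log2 unit of 0 for 21 members, and 33 of the 51 values were positive, beside 2098 of all 3429 genes. USP46 had 24.6, 23.3 and 19.6 CPM in GLY_PUE and 5.24, 23.6 and 19 CPM in GLY libraries, of which replicate 1 alone was low (log2 fold change 0.50, 95% interval -0.35 to 1.35). RNF122, with 0.843, 0.283 and 0.90 CPM in GLY_PUE and 0.945, 1.03 and 1.36 CPM in GLY libraries, was the only member whose groups did not overlap (1 of 51, beside 4.87% of all genes, log2 fold change -0.71, 95% interval -1.57 to 0.14). The other members with the smallest p-values were USP6 (log2 fold change 0.89), RNF208 (-0.56) and FBXO33 (0.37), and FBXO5 stood at 0.26. The interaction, the difference between the GLY effect with PUE and without it, gave 0 calls among members and all genes with edgeR (33 genes with an unadjusted p under 0.05) and with DESeq2 (22 genes). Its values ran from -1.11 (KLHL10) to 1.09 (USP6), with RNF208 (-0.49), USP46 (0.57) and RNF122 (-0.53) next by p, and FBXO5 at 0.29.

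**Figure D5:**
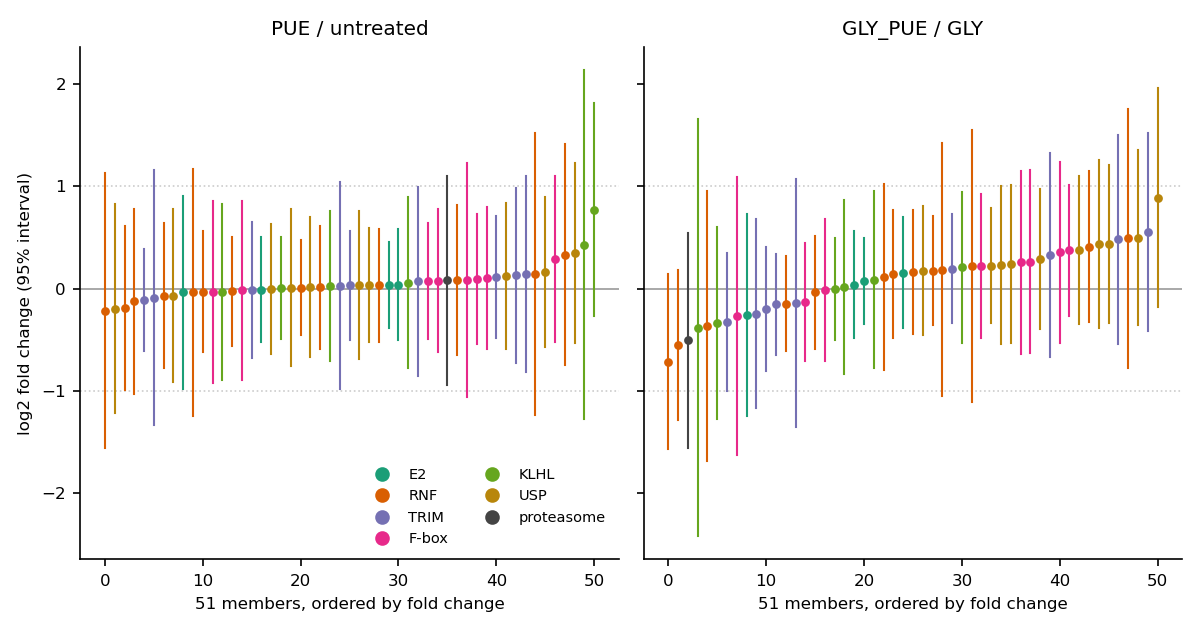
Log2 fold changes with 95% intervals (vertical axis) of 51 members, ordered by value along the horizontal axis and coloured by family, in PUE against untreated (left) and GLY_PUE against GLY (right). Dotted lines mark 1 and -1, and the intervals of 36 and 21 members lay between them.

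Other genes of the pathway were taken from lists that name its parts. Of 9 E1 enzymes the table held UBA7, the E1 for ISG15 (log2 fold change -1.47 in GLY against untreated, adjusted p = 0.0871, not passed). Of 26 cullins and their adaptors 5 were listed and 4 tested, and all 4 fell in GLY, with a median of -1.36, and in GLY_PUE against PUE, with one of -1.32. In these 2 comparisons 64.6% and 57.3% of all genes tested fell, and 4 genes are too few to set apart from that. SKP2, the F-box protein that targets the inhibitor p27, had 7.27, 13.6 and 14.4 CPM in GLY, against 38.8, 40.9 and 68.5 CPM in untreated libraries (log2 fold change -2.07 ± 0.35 SE, adjusted p = 0.000434), and also passed under TMM scaling. DTL, the CUL4 adaptor for CDT1, had 12.9, 27.8 and 34.2 CPM in GLY, against 67.9, 67.2 and 86 CPM in untreated libraries (log2 fold change -1.56 ± 0.31 SE, adjusted p = 0.00116), and did not pass under TMM scaling.

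Of 92 further E3 ligases 17 were tested, and 3 rose and 12 fell in GLY, with a median of -1.13, while in GLY_PUE against PUE 3 rose and 9 fell, with one of -0.88. These counts, and those of the deubiquitinases that follow, stand beside falls in 64.6% and 57.3% of all genes tested. Rises came to 19.7% and 20.6%. NEURL1B, a ligase of Notch ligands, had 0.331, 0.749 and 0.985 CPM in GLY, against 14.3, 12.7 and 14.2 CPM in untreated libraries (log2 fold change -4.31 ± 0.39 SE, adjusted p = 1.57e-05). UHRF1, which maintains DNA methylation, had 13.2, 32.9 and 30.3 CPM in GLY, against 104, 110.1 and 152 CPM in untreated libraries (log2 fold change -2.26 ± 0.34 SE, adjusted p = 0.000236). Both passed under TMM scaling as well. Among 42 deubiquitinases of other families 4 were tested and 3 fell in GLY (median -1.35) and in GLY_PUE against PUE (median -1.18), among them MINDY1 (log2 fold change -1.52 ± 0.24 SE, adjusted p = 0.000292) and BRCC3 (log2 fold change -1.43 ± 0.37 SE, adjusted p = 0.00444), while under TMM scaling neither passed.

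Of 30 genes of degradation from the endoplasmic reticulum 3 were tested, and 2 rose and none fell in GLY (median 1.24) and in GLY_PUE against PUE (median 1.30), beside rises in 19.7% and 20.6% of all genes. HERPUD1, a scaffold of that machinery, had 166, 198 and 456 CPM in GLY, against 83.5, 83.7 and 79.2 CPM in untreated libraries (log2 fold change 1.73 ± 0.37 SE, adjusted p = 0.00152). SYVN1, its central ligase, had 162, 179 and 278 CPM in GLY, against 86.2, 94.1 and 81.1 CPM in untreated libraries (log2 fold change 1.24 ± 0.26 SE, adjusted p = 0.00153). Replicate 3, labelled 14 h, was the highest GLY library for both, and both rises also passed under TMM scaling. Ubiquitin and its relatives (14 genes), the anaphase-promoting complex (16) and proteasome activators and assembly factors (18) had no gene in the table and were not analysed here.

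Members were also grouped by role, in lists too short to set apart from the 64.6% of all genes that fell in GLY and the 57.3% that fell in GLY_PUE against PUE. Of 5 tested members linked to interferon, TRIM25 rose and USP18 fell in GLY, with a median of -0.64, and in GLY_PUE against PUE 1 rose and 3 fell. Both tested members of a cell cycle list (FBXO5 and UBE2T) fell in GLY, as did all 3 of a list for DNA damage and chromatin (FBXL19, UBE2T and USP28), with medians of -1.21 and -1.17, and so did all 3 linked to the endoplasmic reticulum (RNF103, RNF170 and USP13, with a median of -1.05), while under TMM scaling none of these falls passed. In GLY_PUE against PUE the falls numbered 1 of 2, 3 of 3 and 1 of 3. The list of E2 enzymes for ubiquitin-like proteins held UBE2L6 alone. Lists of members linked to Wnt signalling (9 genes) and to muscle atrophy (8 genes) had none in the table.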

How the data were processed

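RNA of 12 SW480 libraries was sequenced on a BGISEQ-500, per the labels' protocols. The deposited table gives, per the file headers, an estimated count and an expression value for each gene and library, with the authors' log2 ratios, p-values and q-values for each pair of groups. The header does not name the unit of the expression value. The authors' deposited values behave as FPKM, which the ratio to the counts alone cannot tell from TPM. The submitters' processing notes name TopHat and DESeq 1.32.0 with no role, and the counting tool, genome build, annotation and use of strand are left unstated by the sources used here. Of the deposited counts 58.2% are whole numbers, and near-identical copies and overlapping genes may share reads.

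Counts were rounded and fitted with edgeR 4.0.16 (quasi-likelihood test, robust, R 4.3.3) over 4 groups of 3 libraries, after filterByExpr left 3429 genes. Adjusted p-values are Benjamini-Hochberg values over those genes, with 0.05 as the threshold. Errors (SE) and 95% intervals come from the fit. Since the table holds a selected part of each library, each library's total was worked out by dividing counts by expression values over 625 genes (at least 100 counts and an expression value of at least 5). Their absolute size was set by 39 genes with a single transcript in GENCODE release 29 (slope 20.2 M reads, 95% interval 20.0 to 20.7). No molecular identifiers are mentioned in the labels, so reads may not be independent molecules.

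The alternatives changed the scaling (TMM or RLE within the list), the tool (DESeq2 1.42.0, or limma 3.58.1 on log2 values (with voom, and on the expression value plus a pseudocount of 1)), the filter (none, or at least 50 counts in 3 libraries), the samples (only the libraries compared, or 1 or more libraries left out), the replicate number as a block, and the threshold (0.01, or a log2 fold change of at least 1 in size as well). The fits were tested on simulated data. The block with only the libraries compared, the length description and the interferon motif were added after the data were seen.

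In each comparison with GLY the text names, per family, up to 2 called members with the largest rise and 2 with the largest fall, with groups that do not overlap and an average log2 CPM of at least 1. In the other comparisons it names the 5 members with the smallest p. FBXO5 was always named, while UBE2C, UBE2S, FBXW7, FBXW11, FBXO32 and USP7 were not analysed here. For other pathway lists, up to 2 genes with the smallest p in GLY against untreated are named. Members and lists were chosen with earlier results of these data known. Members named outside this rule are marked where they first appear, or stand in counts and ranges. Agents other than GLY and PUE that the protocol mentions were not analysed here.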

Additional observations from a re-analysis of the deposited data

How the results depend on the processing

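Scaling and the threshold moved the counts of falls. In GLY against untreated, GLY_PUE against PUE and GLY_PUE against untreated, TMM and RLE scaling each left 1 member called lower, against 35, 33 and 30. Over all 3429 genes, TMM called 1158, 1232 and 1211 in either direction and RLE 1188, 1250 and 1234, against 2890, 2669 and 2651. A threshold of 0.01 left 20, 16 and 15 members lower, and 5 higher in GLY against untreated. A fit of only the libraries compared called 2437 of 3224 genes in GLY against untreated, and 30 members, 23 of them lower. Leaving out 1 library gave 6 to 9 higher and 24 to 36 lower in GLY against untreated, 6 to 7 and 21 to 38 in GLY_PUE against PUE, and 6 to 8 and 19 to 38 in GLY_PUE against untreated, with 21 and 19 falls without GLY_PUE replicate 1. Over all genes those fits called 2406 to 2941, 2189 to 3011 and 2132 to 2995 in either direction, of 3467 to 3521 tested. Leaving out 1 library gave 0 members called in PUE against untreated, GLY_PUE against GLY and the interaction. Of the members called with library totals in these 3 comparisons, 15, 9 and 9 had the other sign with TMM and 11, 8 and 7 with RLE. These included FBXL19 (0.040 with TMM), TRIM7 (0.18 with TMM, 0.10 with RLE), UBE2E3 (0.13, 0.074), USP6 (0.058 with TMM) and RNF26 (0.34, 0.27) in GLY against untreated, RNF26 in GLY_PUE against PUE (0.011 with TMM) and USP6NL in GLY_PUE against untreated (0.058, 0.029). These scalings assume that most listed genes do not change. DESeq2 called 43, 39 and 38 members and limma-voom 43, 40 and 37 in the 3 comparisons with GLY, against 43, 40 and 37 with edgeR. Over all 3429 genes DESeq2 called 2915, 2734 and 2686 and limma-voom 2934, 2663 and 2623. Over the 220 values of named genes under TMM and RLE, 118 kept their side of the threshold, with no turn of sign where called. Of the others, 85 lost a call and 6 gained one at the same sign, and 11 turned sign in a value called in either fit. A turn of sign in a value uncalled in both fits was not counted as a change. By the same count, 1249 of 1320 values were unchanged with 1 library left out and 921 of 952 under the other alternatives. Same-numbered libraries had correlations of 0.02 to 0.70 after removal of group means, and 24 of 36 library and group pairs correlated best with their own number, a hint from the data and not from the design. With the replicate number as a block, 9 members were higher and 38 lower in GLY against untreated, 8 and 36 in GLY_PUE against PUE, 8 and 34 in GLY_PUE against untreated, and 0 in the others. Over all 3429 genes the block called 3086, 2949 and 2926 in the comparisons with GLY. The block with only the libraries compared, added after the data were seen, gave 9 and 35, 9 and 39, and 9 and 38 members. It called 2754 of 3224, 3064 of 3236 and 3008 of 3244 genes. Members near 1 CPM rest on about 20 reads a library, where the 95% intervals are wide.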
